A study of Homo sapiens with 8 samples.

Results

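IFITM1, IFITM2, IFITM3, BST2, IFI6 and IFI27 are 6 interferon-induced genes whose products sit in cellular membranes. They are 6 of 19509 named genes tested, and they were selected on their measured values in these arrays, as genes much lower in CDK2 knockout cells than in cells given the inhibitor NU6102 or adapted to it. All 8 array probes that carry one of these names were kept. The selection used the differences of each altered group from WT and those of CDK2 KO from the other groups. These are therefore given below as descriptions with no p-values. Counts of called members among them follow from the selection, and nothing is read from such counts. Of the pairwise comparisons, R50 against WT+NU6102 was the one not named by the selection, and it was tested. Both of its groups entered the selection through their differences from WT and CDK2 KO. Its p-values are therefore not independent of the selection.

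RNA came from HCT-116, a human colorectal carcinoma line, in 4 groups of 2 arrays. WT cells were the untreated parental line in exponential growth. WT+NU6102 cells were the same line exposed for 24 h to 20 µM NU6102, a chemical inhibitor of CDK1 and CDK2. CDK2 KO cells were an untreated HCT-116 line with CDK2 deleted, which the authors bought together with its parental line. R50 cells were HCT-116 cells that had grown out as resistant colonies in 50 µM NU6102, present from the start, and were kept in that dose. The knockout is a single purchased line and the resistant cells descend from selected colonies, so a difference between lines that is unrelated to CDK2 or to NU6102 cannot be told apart from the named difference. No interferon was added in any group. Duplicates are numbered samples with no statement that they came from separate cultures, so p-values measure the spread between these samples, which may be technical.

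Each array had 32376 to 36206 spots well above background, and duplicate arrays correlated with r from 0.9937 to 0.9958 across probes, which are not independent replicates. The CDK2 KO and R50 arrays shared slide 1 and the WT and WT+NU6102 arrays slide 2. WT+NU6102 against WT and CDK2 KO against R50 are therefore comparisons within a slide, and in the others slide and group cannot be told apart. CDK2 itself was at log2 levels of -0.76 on both WT arrays, -0.44 and -0.42 with NU6102, -1.56 and -1.51 in CDK2 KO and -1.10 and -1.09 in R50. It was lower in the knockout by a log2 difference of -0.77 (SE 0.04, limma adjusted p = 0.0002677), and its probe stayed well above background on all 8 arrays. Of 9 colon epithelial markers 8 were tested, among them EPCAM, KRT8 and KRT18, and none was called in any group against WT (5 were higher in CDK2 KO and 5 in R50 at an unadjusted limma p under 0.05, and 4 were lower and 3 higher with NU6102). Of markers of other cell types, 4 of 6 leukocyte, 1 of 6 fibroblast and 2 of 4 endothelial genes were bright enough to test, and COL1A1 among them was higher in CDK2 KO by a log2 difference of 1.22.

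Interferons signal through surface receptors to JAK kinases, which activate a complex of STAT proteins and IRF9. That complex binds a short DNA element, the interferon-stimulated response element, in front of a large set of genes. The IFITM proteins, encoded side by side on chromosome 11, sit in the plasma membrane and endosomes and hinder the fusion of incoming viruses. BST2, also called tetherin, anchors budding virus particles to the cell surface. IFI6 and IFI27 are small hydrophobic proteins of mitochondria and the endoplasmic reticulum, described as regulators of apoptosis and as antiviral factors. Several of these genes are expressed in tumour cells without added interferon.

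The letters in front of the genes are shown first, because all 6 are known as interferon targets and the element is short enough to read. RefSeq promoter windows of GRCh38.p14, from 250 bases before to 50 bases after each transcription start, matched 5 of the 6 symbols. IFITM2 had no entry. The pattern GAAANNGAAA, a core of the interferon element, was searched on both strands with overlapping matches allowed, and is in capitals below (as TTTCNNTTTC where it lies on the other strand). Each line reads 5′ to 3′ on the strand of the gene and holds the upstream matches with up to 25 bases on either side.
IFITM1: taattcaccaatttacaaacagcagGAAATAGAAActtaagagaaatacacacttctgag
IFITM3: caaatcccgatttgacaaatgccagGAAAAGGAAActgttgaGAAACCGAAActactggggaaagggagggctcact
BST2: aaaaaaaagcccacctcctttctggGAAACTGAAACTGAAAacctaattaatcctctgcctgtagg
IFI6: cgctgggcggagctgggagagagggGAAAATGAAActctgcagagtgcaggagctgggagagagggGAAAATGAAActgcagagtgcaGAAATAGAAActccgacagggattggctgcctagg
IFI27: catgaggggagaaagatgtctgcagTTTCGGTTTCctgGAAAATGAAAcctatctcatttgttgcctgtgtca

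These stretches lie at chr11:313975-314034 on the plus strand for IFITM1, chr11:320861-320937 on the minus strand for IFITM3, chr19:17405720-17405785 on the minus strand for BST2, chr1:27672251-27672373 on the minus strand for IFI6 and chr14:94110603-94110675 on the plus strand for IFI27. All 5 windows held the pattern, as did 1195 of 27305 genes with a window (4.38%) and 24 of 37 genes of the interferon-stimulated list used below (64.9%). IFI6 had 3 upstream matches, IFITM3, BST2 and IFI27 had 2 each, and those of BST2 overlap. IFITM1 had 1 upstream and a further match that begins 6 bases before its start and runs past it. IFI27 has 2 annotated starts, whose windows share the same matches. A looser pattern known from STAT binding elements, TTCNNNGAA, which reads the same on both strands, was in the windows of 3 of the 5 genes (IFITM1, BST2 and IFI27) against 9.38% of all genes and 9 of 37 genes of the interferon-stimulated list (24.3%). A match is a run of letters and not a measured binding site.

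The IFITM genes are close copies of each other, so the letters of their probes matter for whether the array separates them. Below are the coding-end probe of IFITM1 (chr11:315054-315113, hg19, plus strand), the IFITM2 probe (chr11:309109-309168, plus strand) and the IFITM3 probe (chr11:319855-319914, minus strand), with the longest run shared by the IFITM2 and IFITM3 probes in capitals. Positions come from the scanner files of the WT and WT+NU6102 arrays.
IFITM1: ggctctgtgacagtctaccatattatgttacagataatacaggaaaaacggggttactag
IFITM2: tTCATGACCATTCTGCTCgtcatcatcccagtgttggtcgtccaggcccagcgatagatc
IFITM3: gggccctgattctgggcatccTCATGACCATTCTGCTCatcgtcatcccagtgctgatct

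The IFITM2 and IFITM3 probes share a run of 17 bases, and over the 40 bases where they overlap without gaps they differ at 6. Transcripts of IFITM2 and IFITM3 could therefore contribute to each other's signal, and their values are read together. No member probe shared a run of 20 bases with a probe of another gene. IFITM1 has a second probe at chr11:315209-315268. The other probes lie at chr19:17513748-17513807 and chr19:17514054-17514113 for BST2, chr1:27992837-27992896 for IFI6 and chr14:94582967-94583026 for IFI27. None of the 8 probes was saturated on any array, and all were well above background on all 8 arrays.

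IFITM1 had the largest difference of group means between WT and CDK2 KO. The processed signal of its brighter probe was 38100 and 34690 on the WT arrays, 5888 and 4800 with NU6102, 386 and 426.7 in CDK2 KO, and 16790 and 15580 in R50. The 4 groups did not overlap, and the order from the top was WT, R50, WT+NU6102 and CDK2 KO. Relative to each array's 75th percentile, the log2 difference from WT was -6.37 in CDK2 KO (SE 0.11), -2.81 with NU6102 (SE 0.11) and -1.12 in R50 (SE 0.11), which leaves 1.21%, 14.2% and 46.0% of the WT level. The coding-end probe gave -6.34, -2.86 and -1.11, so both probes placed the gene alike.

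IFITM2 and IFITM3 kept the same order of groups over a much smaller range. The IFITM2 signal was 75920 and 75570 in WT, 49930 and 50270 with NU6102, 29710 and 30830 in CDK2 KO, and 57910 and 60390 in R50. For IFITM3 it was 117900 and 114700, 75240 and 73580, 43660 and 43320, and 83030 and 84500 in the same order. Again no group overlapped another. CDK2 KO cells held 43.4% of the WT level of IFITM2 and 40.6% of that of IFITM3, log2 differences of -1.20 (SE 0.05) and -1.30 (SE 0.04). The word lost, by which the 6 genes were grouped, does not describe these genes, which remained more than 5 log2 units above the 75th percentile of the knockout arrays. With NU6102 their differences from WT were -0.64 and -0.68, and in R50 they were -0.31 and -0.42.

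BST2 resembled IFITM1. Its brighter probe read 6092 and 5090 in WT, 1062 and 954.1 with NU6102, 83.11 and 58.25 in CDK2 KO, and 2262 and 2253 in R50. All 4 groups were apart. CDK2 KO cells had 1.36% of the WT level (log2 difference -6.20, SE 0.17), WT+NU6102 cells 17.6% (-2.51) and R50 cells 42.0% (-1.25). The other BST2 probe gave -5.75, -2.44 and -1.23. The knockout arrays were the least alike here, at log2 levels of -2.99 and -3.48 for the brighter probe, where the signal was closest to background.

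IFI6 and IFI27 differed less from WT with NU6102 than IFITM1 and BST2 did. The IFI6 signal was 46340 and 43870 in WT, 19450 and 18470 with NU6102, 1429 on both CDK2 KO arrays, and 19180 and 20470 in R50. WT+NU6102 and R50 cells were thus at nearly the same level, 40.9% and 45.5% of WT, while CDK2 KO cells had 3.44% (log2 difference -4.86, SE 0.05). In raw signal the lower R50 array lay between the WT+NU6102 arrays, and after scaling by the 75th percentile the groups were apart.

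For IFI27 the signal was 19410 and 16340 in WT, 7233 and 6493 with NU6102, 270.6 and 242.8 in CDK2 KO, and 14240 and 13510 in R50. R50 cells kept 80.6% of the WT level (log2 difference -0.31, SE 0.10), close to the 80.8% of IFITM2. This difference was -0.20 without the first WT array and -0.42 without the second. With NU6102 the level was 37.4% of WT (-1.42), and in CDK2 KO it was 1.56% (-6.00, SE 0.10). The plot of levels by array shows the same ordering for all 6 genes.

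**Figure D1:**
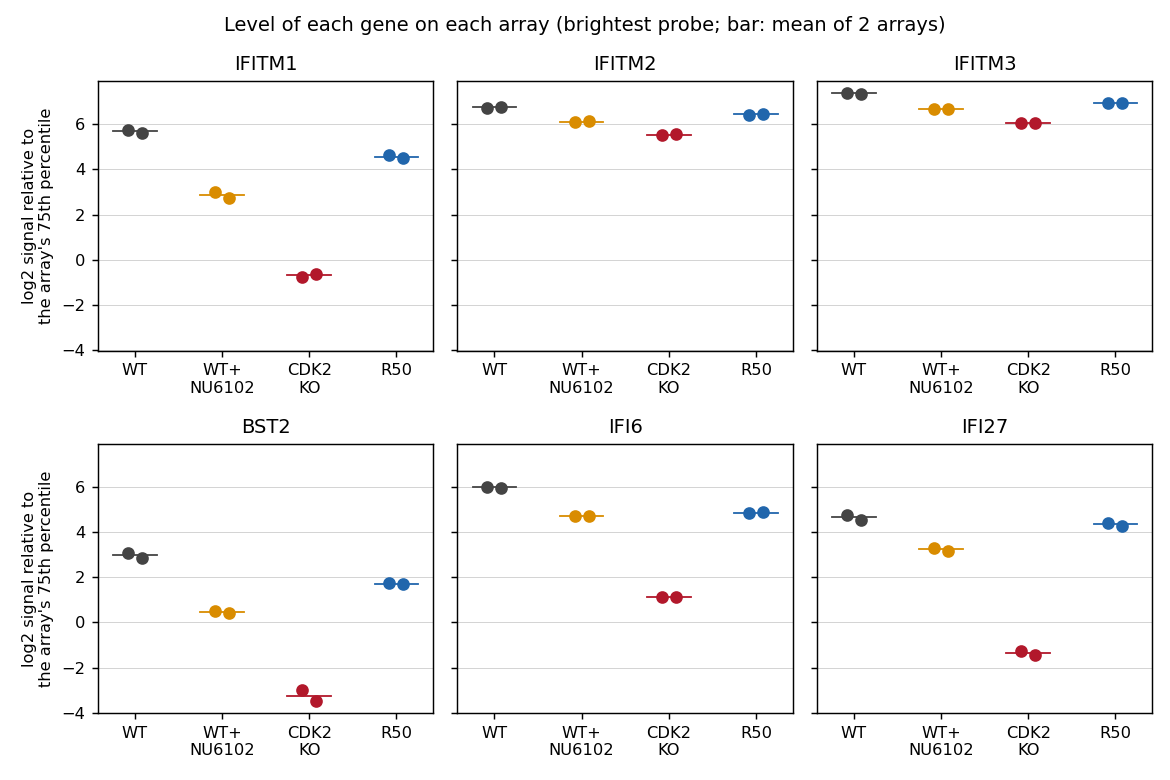
Log2 signal relative to each array's 75th percentile, on the vertical axis, for the brightest probe of each gene in the 4 groups. Points are arrays and short bars are means of 2 arrays. In every panel the CDK2 KO points are lowest and the WT points highest, and R50 lies above WT+NU6102, narrowly so for IFI6.

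Set against each other, the knockout differences fell into a deep set (IFITM1, BST2, IFI27 and IFI6, from -6.37 to -4.86) and a shallow pair (IFITM2 and IFITM3). Over the 6 genes the median log2 difference from WT was -5.43 in CDK2 KO, -1.35 with NU6102 and -0.77 in R50, where all 19509 genes had medians of 0.03, 0.04 and -0.03. A gene was called at a limma adjusted p under 0.05 and an absolute log2 difference of at least 1. By that rule 6 genes were lower in CDK2 KO, where 2.29% of all 28677 probes tested were called lower. With NU6102 it was 4 genes, against 5.21% of probes. In R50 it was 3 genes, against 0.955% of probes. These counts follow from the selection and nothing is read from them.

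**Figure D2:**
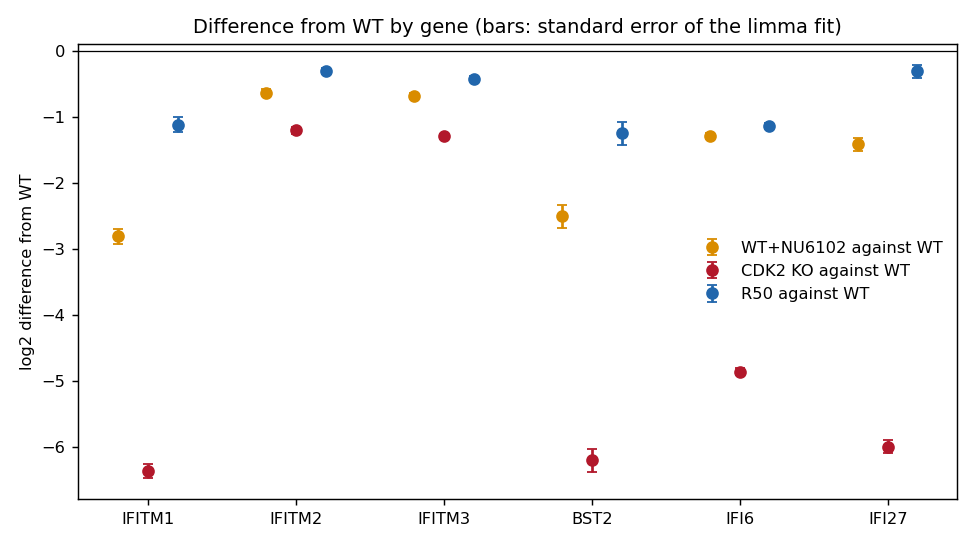
Log2 difference from WT, on the vertical axis, of the brightest probe of each gene in WT+NU6102, CDK2 KO and R50 cells. Bars are standard errors from the limma fit of 8 arrays. The CDK2 KO points lie between -6.37 and -4.86 for IFITM1, BST2, IFI6 and IFI27 and at -1.20 and -1.30 for IFITM2 and IFITM3.

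Within slide 1, CDK2 KO against R50 gave log2 differences of -5.25 for IFITM1, -4.95 for BST2, -3.72 for IFI6, -5.69 for IFI27, -0.90 for IFITM2 and -0.88 for IFITM3. The large differences were therefore present between arrays of the same slide. The median was -4.34, and 4 genes were called lower, against 2.81% of probes. Against WT+NU6102, on the other slide, CDK2 KO differed by -3.55 for IFITM1, -3.69 for BST2, -3.57 for IFI6, -4.58 for IFI27, -0.57 for IFITM2 and -0.61 for IFITM3. Again 4 genes were called lower, against 3.64% of probes. Both counts follow from the selection, which used these comparisons, and nothing is read from them. The deep genes were thus a further 11.7 to 23.9-fold lower in the knockout than after 24 h of NU6102.

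R50 and WT+NU6102 cells are the groups that had both met NU6102, at 50 µM under long maintenance and at 20 µM for 24 h, so that dose, time and line differ together. IFITM1 was higher in R50 by a log2 difference of 1.70 (SE 0.11, limma adjusted p = 0.0001359), and its second probe gave 1.76 (adjusted p = 0.0001641). BST2 was higher by 1.26 (SE 0.17, limma adjusted p = 0.001844) and by 1.21 at its second probe (adjusted p = 0.0009392). IFI27 was higher by 1.11 (SE 0.10, limma adjusted p = 0.0003728). These 3 genes met the call rule, against 7.58% of probes called higher in R50. After scaling, both R50 arrays exceeded both WT+NU6102 arrays for all 6 genes. In raw signal IFI6 was an exception, at 19180 on the lower R50 array and 19450 on the higher WT+NU6102 array. The share of all genes whose arrays separate in this way is not given, so nothing is read from the separation. IFITM2 and IFITM3 were higher by 0.33 and 0.26 (limma adjusted p = 0.003143 and 0.00361), short of the 2-fold limit.

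IFI6 was the gene with the smallest difference between these groups, 0.15 (SE 0.05, limma adjusted p = 0.04142). Under quantile normalization it was 0.36. The median over the 6 genes was 0.72, and that of all genes was -0.06. This comparison crosses the slides, and slide and group cannot be told apart in it. The values of both groups were also used in the selection, which its p-values do not allow for.

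The other genes of the interferon system were set beside the 6. Of 50 interferon-stimulated genes in a list that holds none of the 6, 46 were tested. In CDK2 KO 31 fell and 0 rose against WT, with a median log2 difference of -1.47. With NU6102 38 fell and 0 rose, with a median of -1.66. In R50 10 fell and 0 rose, with a median of -0.76. At an unadjusted limma p under 0.05 and with no limit on size, 41, 43 and 39 list genes were lower and 0, 1 and 1 higher in the same order. All 3 comparisons use the same WT arrays. The list was thus lower with NU6102 to about the extent seen in the knockout. Each of the 6 membrane genes had the smaller difference with NU6102. They were selected for that, so nothing is read from the contrast with the list.

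In the direct comparison of CDK2 KO with WT+NU6102, 3 list genes were lower in CDK2 KO, 6 were higher and the median was 0.09. The 3 lower were IFI44, IFIT1 and IFIT2. The 6 higher were RSAD2, DDX60L, SAMD9, ISG20, CMPK2 and TRIM22. All are named here after their values were seen. RSAD2 and TRIM22 were not well above background with NU6102. RSAD2 was at least 1.8-fold higher in CDK2 KO, a bound short of the 2-fold limit, and its CDK2 KO arrays differed widely (SD 1.53). TRIM22 has no bound, because its CDK2 KO mean of -5.07 was below the lowest signals well above background with NU6102 (-4.99 and -4.93). Under normexp correction 3 list genes were lower and 2 higher in CDK2 KO. The group mean was lowest in CDK2 KO for 20 of the 46 genes, with NU6102 for 23 and in R50 for 3. Between R50 and CDK2 KO 20 list genes were lower in the knockout and 0 higher. Against WT+NU6102 27 were higher in R50 and 0 lower, the direction seen for IFITM1, BST2 and IFI27.

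The list members named for the largest knockout differences were also lower with NU6102. IFI44L, whose probe was not well above background in either CDK2 KO or WT+NU6102, was at least 12.4-fold lower in the first and at least 11.2-fold lower in the second (limma fitted log2 differences -5.82 and -5.57). SAMD9L was likewise at least 11.4-fold and at least 10.3-fold lower. OAS1, a sensor of double-stranded RNA, differed from WT by -4.65 in CDK2 KO and -4.47 with NU6102, and PARP10 by -4.41 and -4.15. IFIT1, which binds foreign RNA caps, was at -5.02 and -3.48. For IFI44L and SAMD9L the bounds do not tell how far apart the 2 groups were. The OAS1 arrays of CDK2 KO differed widely (SD 1.83 on the log2 scale, n = 2). IFIT1 was lower in CDK2 KO than with NU6102 by a log2 difference of -1.54 (SE 0.05, limma adjusted p = 2.546e-05).

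IFI44 and IFIT2 were the list genes closest to the 6 in pattern. IFI44 was not well above background in CDK2 KO, where it was at least 63.0-fold lower than WT (limma adjusted p = 2.01e-05) and at least 6.90-fold lower than WT+NU6102. Its log2 differences from WT were -3.19 with NU6102 and -2.02 in R50. IFIT2 was lower than WT+NU6102 in CDK2 KO by -1.73 (SE 0.06, limma adjusted p = 2.771e-05). The plot of both differences places the deep members and IFI44 well below the line of equal differences. The list genes lie on both sides of that line. At an unadjusted limma p under 0.05, 14 were lower and 18 higher in CDK2 KO than with NU6102. Values as low as those of the deep members also occurred outside the members and the list. Of all 19509 genes, 10 were at -3.55 or lower in CDK2 KO against WT+NU6102 and at -3.72 or lower against R50. These limits are the least negative values of the deep members. The 10 were the 4 deep members and 6 other genes, of which only IFI44 was on the list. Whether those not on the list respond to interferon was not tested.

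**Figure D3:**
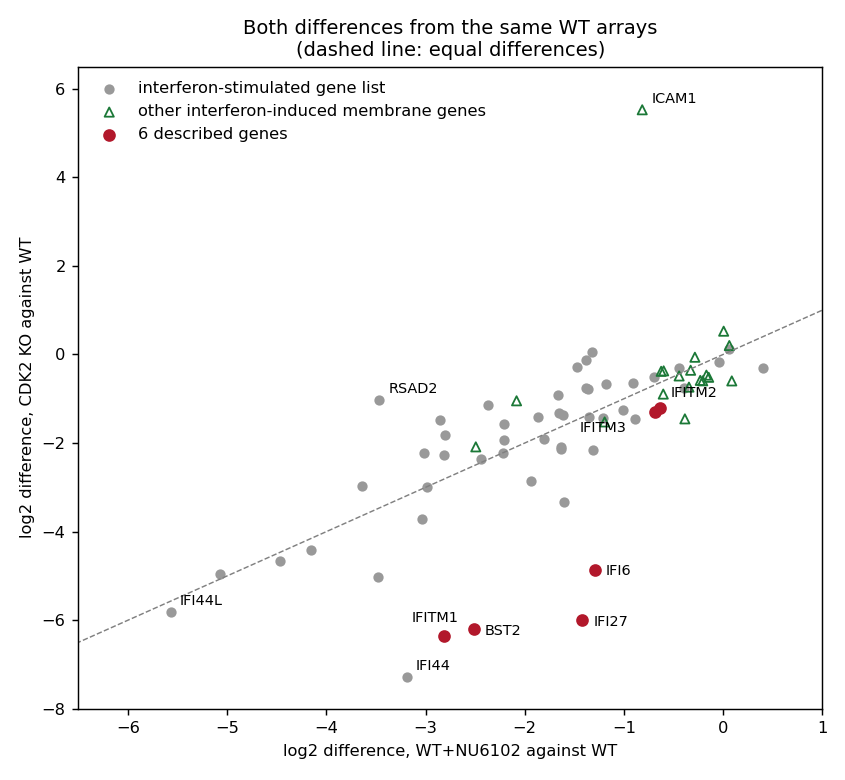
Log2 difference from WT in CDK2 KO cells (vertical) against that in WT+NU6102 cells (horizontal), both from the same WT arrays, for 46 interferon-stimulated genes, 19 other interferon-induced membrane genes and the 6 described genes. Points on the dashed line have equal differences. IFITM1, BST2, IFI6, IFI27 and IFI44 lie far below it, and ICAM1 lies far above. Measured values are plotted also where a probe was not well above background, as for IFI44 in CDK2 KO.

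Other interferon-induced genes of membranes did not as a class share the deep knockout difference for which the members were selected. Of 20 such genes 19 were tested, and against WT 4 fell and 1 rose in CDK2 KO, with a median of -0.52. The 4 were APOL6 (-2.09), the lipid scramblase PLSCR1 (-1.52), APOL2 (-1.45) and the butyrophilin BTN3A1 (-1.05). Without the 2-fold limit and at an unadjusted limma p under 0.05, 15 of the 19 were lower in CDK2 KO, so the common difference was small rather than absent. With NU6102 3 fell, and in R50 0 were called at a median of -0.08 (5 lower and 1 higher at an unadjusted limma p under 0.05). The antigen presentation genes HLA-B, HLA-C, HLA-E, HLA-F, B2M, TAP1 and TAP2 were not called in CDK2 KO, with differences from -0.89 for TAP2 to -0.06 for HLA-F. ICAM1, an adhesion receptor for leukocyte integrins, went the other way. It was well above background on the CDK2 KO arrays alone and was at least 24.6-fold higher there than in WT (limma fitted log2 difference 5.53, adjusted p = 6.056e-05).

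Among relatives of the members, IFITM4P, a pseudogene copy of the IFITM family, was lower in CDK2 KO by -1.57, and by -0.81 with NU6102 and -0.50 in R50, the last 2 short of a call. Its probe shared no run longer than 7 bases with a member probe, but the transcripts are near copies and its signal is uncertain. IFITM10, IFI27L1 and IFI27L2 were not called in CDK2 KO, at 0.17, -0.24 and -0.31. IFITM5 was too dim to be tested.

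Upstream of the members, the receptors and the ligands differed in how they behaved. None of the 6 receptor genes tested was called in any comparison, with differences from WT in CDK2 KO between -0.27 for IFNGR2 and 0.30 for IL28RA, where an unadjusted limma p under 0.05 was reached by 1 lower and 1 higher gene. Of the ligands on the array the 3 tested were type III interferons, which act mainly on epithelial cells. IL28A fell by 1.71 on the log2 scale in CDK2 KO and by 1.38 with NU6102. IL29 was at least 5.21-fold lower in CDK2 KO and at least 4.11-fold lower with NU6102, and IL28B was at least 2.15-fold and at least 1.93-fold lower, both from levels that were low in WT already. In R50 IL28A differed from WT by -0.97, short of a call. IL28B was at least 1.99-fold lower there, and IL29 differed by -1.84 (SD 0.93 between the R50 arrays). None of the 3 was called between CDK2 KO and R50, where 1 was lower at an unadjusted limma p under 0.05. IFNB1 and IFNG were well above background on both arrays of no group and were not tested.

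Of 10 genes for JAK kinases, STATs and interferon regulatory factors, 3 fell in CDK2 KO and 0 rose. IRF7, a factor that is itself interferon-induced, differed from WT by -3.27 and IRF9 by -2.56. With NU6102 4 fell and 0 rose, with IRF7 at -2.41, IRF9 at -3.81 and STAT2 at -1.13. None was called in R50, where 5 genes were lower at an unadjusted limma p under 0.05. Against WT+NU6102, IRF9 was higher in CDK2 KO by 1.25 (SE 0.09, limma adjusted p = 0.0001657). Of 7 inhibitors of the pathway, USP18 alone fell in CDK2 KO, by 1.67 on the log2 scale. It fell with NU6102 too, by 1.06.

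To see which other genes followed the members, each gene with a range of at least 2 log2 units was compared with the mean centred profile of the 6 over the 8 arrays. The arrays are 4 groups of duplicates, the members themselves follow the selection, and the 1579 genes compared were ranked with no test. The closest were IL15 (r = 0.996), SLC1A3 (0.993), VIM (0.992), IFI44 (0.992), IFIT2 (0.989), NR5A2 (0.988), ALDH1L1 (0.987) and XLOC_008619 (0.979). IL15, a cytokine gene, differed from WT by -2.55 in CDK2 KO, -0.81 with NU6102 and -0.52 in R50. The glutamate transporter gene SLC1A3 was at -2.77, -1.25 and -0.69, and the nuclear receptor gene NR5A2 at -3.88, -0.95 and -0.12. Only IFI44 and IFIT2 of these 8 were on the interferon-stimulated list.

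Taken singly, the closest gene was SLC1A3 for IFITM1 and IFITM2 (r = 0.996 for both), IFIT2 for IFITM3 (0.998), IFI44 for BST2 (0.997), IL15 for IFI6 (0.996) and NR5A2 for IFI27 (0.999). NR5A2 shared with IFI27 the small difference between R50 and WT. Among the members, brightest probes correlated with r from 0.936 (IFITM3 with IFI27) to 0.9955 (IFITM1 with BST2), with IFITM2 and IFITM3 next at 0.9954. ALDH1L1 was not well above background in CDK2 KO, where it was at least 4.08-fold lower than WT.

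**Figure D4:**
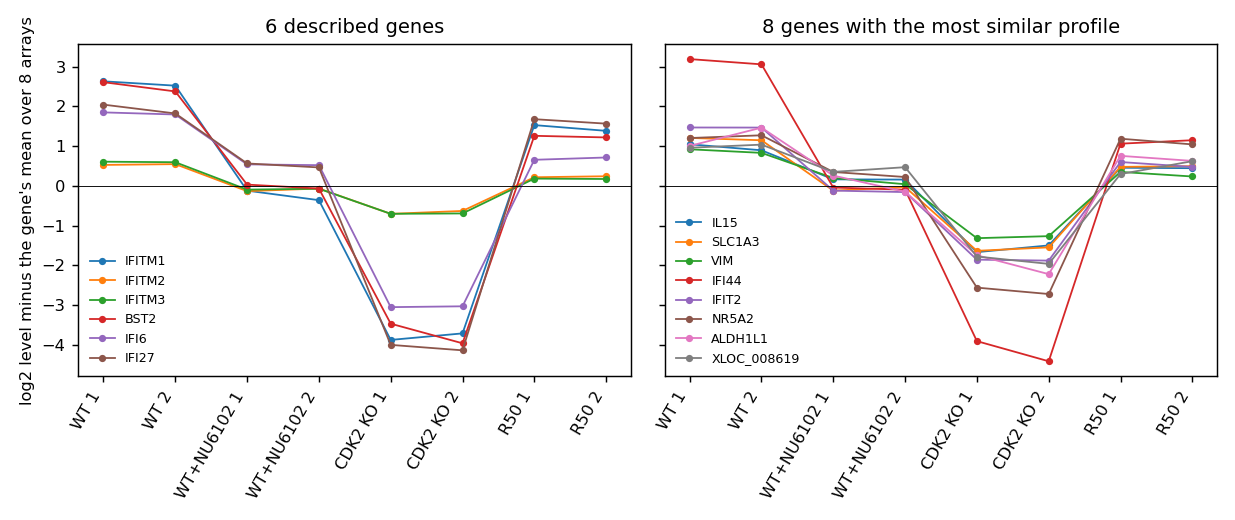
Log2 level minus the gene's mean over 8 arrays (vertical) on each array (horizontal) for the 6 described genes, left, and for the 8 genes whose profile over the arrays was most similar to their mean, right. In both panels the CDK2 KO arrays are lowest and R50 lies closer to WT than to CDK2 KO.

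The members lie at 4 places on chromosomes 1, 11, 14 and 19, and their neighbours were examined for CDK2 KO against WT. Within 500 kb of the members' probes on hg19, 143 other probes naming 112 genes were tested. Of these probes 3 were called lower and 4 higher, and their median difference was 0.01. IRF7 (-3.27, 292.7 kb from the IFITM probes), 1 probe of FAM125A (-1.62, 2.9 kb from BST2) and the transcript XLOC_000755 (-2.07, 5.9 kb from IFI6) were lower. ABHD8 (1.09) near BST2, PTAFR (1.21) near IFI6, ASB2 (at least 1.13-fold) near IFI27 and the transcript ENST00000527620 (1.47) near the IFITM genes were higher. ASB2 was not well above background in WT, so its bound is given. A second FAM125A probe, 20.5 kb from BST2, was not called (0.07, limma adjusted p = 0.4122). Most neighbours stayed near 0.

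**Figure D5:**
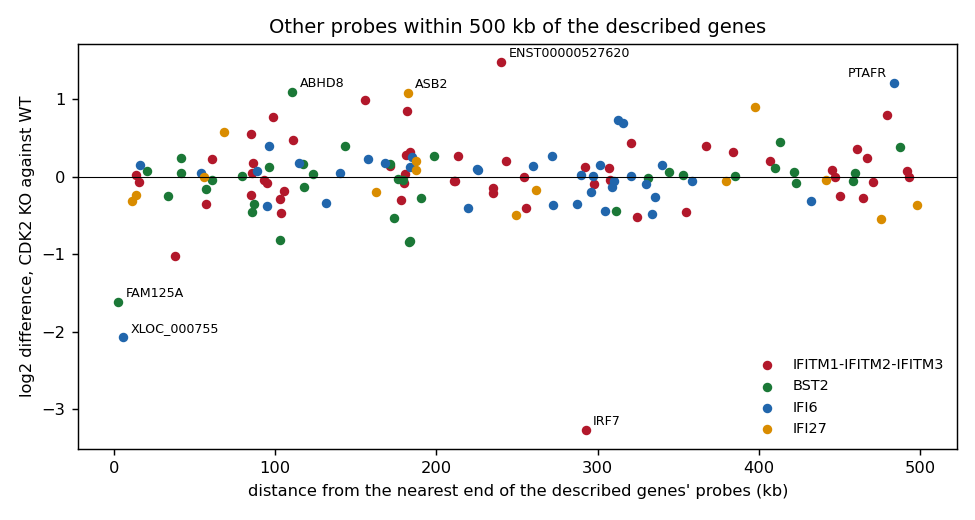
Log2 difference of CDK2 KO from WT (vertical) for 143 other probes within 500 kb of the members' probes, by distance in kb (horizontal) and coloured by locus. Names mark the 7 probes called, 3 lower and 4 higher, and the remaining points scatter around 0.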

How the data were processed

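Total RNA was labelled with Cy3 and hybridized singly to one-colour Agilent arrays of 60-base probes. The authors deposited scanner files with the background-subtracted intensity of each spot from Agilent Feature Extraction 11.5.1.1, not normalized between arrays. They also deposited log2 values of 28719 probes from GeneSpring, which here equal the scanner log2 signal less 1 constant per array, centred on each probe's median (at least 99.77% of probe differences within 0.01, array medians from -0.0212 to 0.0235). These were an alternative.

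In R 4.3.3, control and outlier spots were dropped, the 75th percentile of log2 signal was subtracted per array, and replicate spots were averaged per probe. There were 50599 probes, 31 of them with no usable spot on some array. A probe was tested if the scanner marked it well above background on each array of 1 or more groups, which kept 28677, fitted with limma 3.58.1 over all 8 arrays (two-sided tests, Benjamini-Hochberg over all probes). The fit was checked on simulated data. The brightest probe stood for a gene. The number of arrays limits precision. A probe not well above background on both arrays of a group gives a bound, the brighter group's mean over the higher of its own signal and the lowest signal well above background on each array.

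The members and gene lists were chosen with earlier results of these data known. Named genes are the members, at least the 3 list genes with the largest differences in CDK2 KO, the 8 genes closest in profile and the closest to each member, and called neighbours within 500 kb. Other settings tried were normexp (offset 50), quantile normalization, the authors' processed values, other probe filters and summaries, a trended prior, the adjusted p alone, the methods' t-test, slide-only fits, a replicate block and leaving out each array. Replicate numbers did not pair the samples (correlations of deviations from -0.028 to 0.045). Sequences are from the scanner files and RefSeq. Figures used matplotlib. Some genes of the lists are not reported here by name.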

Additional observations from a re-analysis of the deposited data

How the results depend on the processing

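No member difference changed direction under any alternative run. Under normexp correction the members' median log2 difference was -5.00 for CDK2 KO against WT, -3.78 against R50 and -3.10 against WT+NU6102, and 6 list genes were called for R50 against WT, 5 for CDK2 KO and 16 for R50 against WT+NU6102. Under quantile normalization the members' medians were -1.50 for WT+NU6102 and -0.71 for R50 against WT, -4.44 and -3.45 for CDK2 KO against R50 and WT+NU6102, and 0.89 for R50 against WT+NU6102. Averaging all probes of a gene gave -4.23 and -3.51 for CDK2 KO against R50 and WT+NU6102. Leaving out 1 array at a time gave medians from -5.50 to -5.36 for CDK2 KO, from -1.42 to -1.29 for WT+NU6102 against WT, from -3.63 to -3.50 for CDK2 KO against WT+NU6102 and from -4.44 to -4.22 against R50.

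With probes well above background on all 8 arrays 17 of 36 list genes were called for R50 against WT+NU6102, where fewer genes were tested. With the adjusted p alone, and no limit on size, list calls were 35 for R50 against WT, 39 and 31 for CDK2 KO against R50 and WT+NU6102 and 41 for R50 against WT+NU6102, where all 6 members were called. The methods' t-test after adjustment called 20 list genes for CDK2 KO and 0 for R50 against WT, and 27 and 10 before adjustment at the same size limit. The cause of these shifts was not tested. The replicate block left the members' medians as they were (-5.43 for CDK2 KO against WT) and called 31, 38 and 9 list genes for CDK2 KO, WT+NU6102 and R50 against WT. Within each slide alone the list calls were 37 for WT+NU6102 against WT and 18 for CDK2 KO against R50. With dim list genes set to their bounds the list medians against WT were -1.41, -1.62 and -0.74 in the same order.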
